A study of Mus musculus with 30 samples.

Results

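The Ier genes are named for their immediate early response and the Phlda genes for a shared protein domain. Ier2, Ier3, Ier5, Phlda1, Phlda2 and Phlda3 were followed here through 3 stresses in mouse embryonic fibroblasts (MEFs) with and without the MAP kinase p38α. The members were chosen by gene name: 6 of the 21689 named genes on the array, carried by 8 of its 33453 named probes. Of these 6 genes, Ier2, Ier3, Ier5 and Phlda1 rose in wild type (wt) MEFs after 45 min of anisomycin, TNFα or NaCl, by 1.67-fold to 16.4-fold. These calls come from a fit added after the data were seen. The planned fit gave no value for Ier3 and Phlda1 there and did not call Ier2 with TNFα. At 45 min of NaCl the calls of Ier2, Ier3 and Phlda1 were each lost without replicate 1. Phlda2 stayed close to the level of untreated cells in all groups, and Phlda3 lay at most 1.56-fold from it in either direction.

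Immediate early genes are transcribed within minutes of a stimulus, from promoters whose factors are already present, and their first wave needs no new protein. Many of their transcripts are short-lived, so that their level can fall as soon as transcription slows, and agents that block translation can prolong it. The Ier (immediate early response) genes are named for this behaviour and are not all related in sequence. Ier2 encodes a nuclear protein, Ier3 a protein that acts on cell survival and on NF-κB and ERK signalling, and Ier5 a protein related to Ier2 that works with the phosphatase PP2A. The Phlda proteins are small proteins built around a pleckstrin homology-like domain, a fold that can bind membrane phosphoinositides. Phlda1 is induced by growth factors and stress, Phlda2 is an imprinted gene that limits growth of the placenta, and Phlda3 is a p53 target that restrains Akt. p38α, the product of Mapk14, is a kinase activated by all 3 stresses used here, and it acts on transcription factors and on RNA-binding proteins through kinases such as MSK1 and MK2.

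Total RNA was measured on 30 two-colour arrays in 15 groups of 2. The wt MEFs were given anisomycin at 25 ng/ml, a translation inhibitor that activates stress kinases, for 45 min. At this dose, the paper states, protein synthesis is not fully blocked. Others were given TNFα at 100 ng/ml, an inflammatory cytokine, for 45 min. The other stress was NaCl at 100 mM, which raises osmolarity, for 45 min, 2 h or 8 h. Further wt groups received SB203580, a p38 inhibitor, alone or before each of these 5 stresses. Per the methods it was added at 10 µM, 30 min before the stress, whereas the sample titles give 10 mM and 2 h. p38α-/- MEFs were measured untreated and after anisomycin for 45 min, TNFα for 45 min and NaCl for 2 h at the same doses. The 11 wt and 4 p38α-/- groups come from immortalised lines, so genotype and line cannot be told apart. Every array carried the sample in Cy5 and the same pool of RNA from 2 untreated wt cultures in Cy3, with no dye swap. Values are log2 ratios to this pool, so that 0 is the pool level, 1 is 2-fold higher and -1 is 2-fold lower. A ratio was tested against 0, a test that holds the spread between treated cultures and leaves out the spread of the untreated pool.

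Over the 30 arrays, 81.1% to 96.8% of the probes were well above background in Cy5 and 92.6% to 98.9% in Cy3, and the scanner software marked 6.78% to 44.8% of the spots as outliers (median 16%). Mapk14 itself, the targeted gene, was at -0.94 and -1.98 in untreated p38α-/- MEFs and at -1.75, -1.13 and -1.51 on average after anisomycin, TNFα and NaCl, below the pool in all 8 arrays. Where its probe lies relative to the deleted part is not given in the sources used here, so the remaining signal cannot be read as remaining transcript. All 14 fibroblast markers examined were well above background on all 30 arrays, and so were 22 of 24 markers of endothelial, epithelial, macrophage and muscle cells, among them Cdh1 and Ptprc. This mark therefore does not separate cell types on these arrays, and levels of different probes cannot be compared.

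Of the 6 members, 4 had 1 probe and Ier2 and Phlda2 had 2. The brighter probe of each member was well above background in both channels on 30 of 30 arrays and saturated on none. The dimmer probe of Ier2 was well above background on 4 arrays in Cy5 and 3 in Cy3, and that of Phlda2 on 10 and 20 arrays. Outlier marks fell on 49 of the 180 spots of the brighter probes: 7 of Ier2, 10 of Ier3, 12 of Phlda1, 20 of Phlda2 and none of Ier5 or Phlda3. For Ier2, Ier3 and Phlda1 these marks included both wt anisomycin arrays. Values were therefore fitted in 2 ways. The averaged fit, planned as the main one, leaves out marked spots and averages the probes of a gene. It gives both arrays of a group for Ier3 in only 7 of the 15 groups and for Phlda1 in 6, and it sets Ier2 and Phlda2 partly or wholly on their dim probes. The single-probe fit, added after the data were seen, takes the brightest probe of every gene with all its spots. Below, "rose" and "fell" refer to an adjusted p under 0.05 in the single-probe fit. Of its 93 calls for the 6 members, the averaged fit also called 40, had no value for 28 and did not call 25. Those 25 were 21 of the 24 Ier2 calls, 2 of Ier5 and 1 each of Phlda1 and Phlda3, and for the latter 4 the averaged adjusted p stands beside the value.

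**Figure D1:**
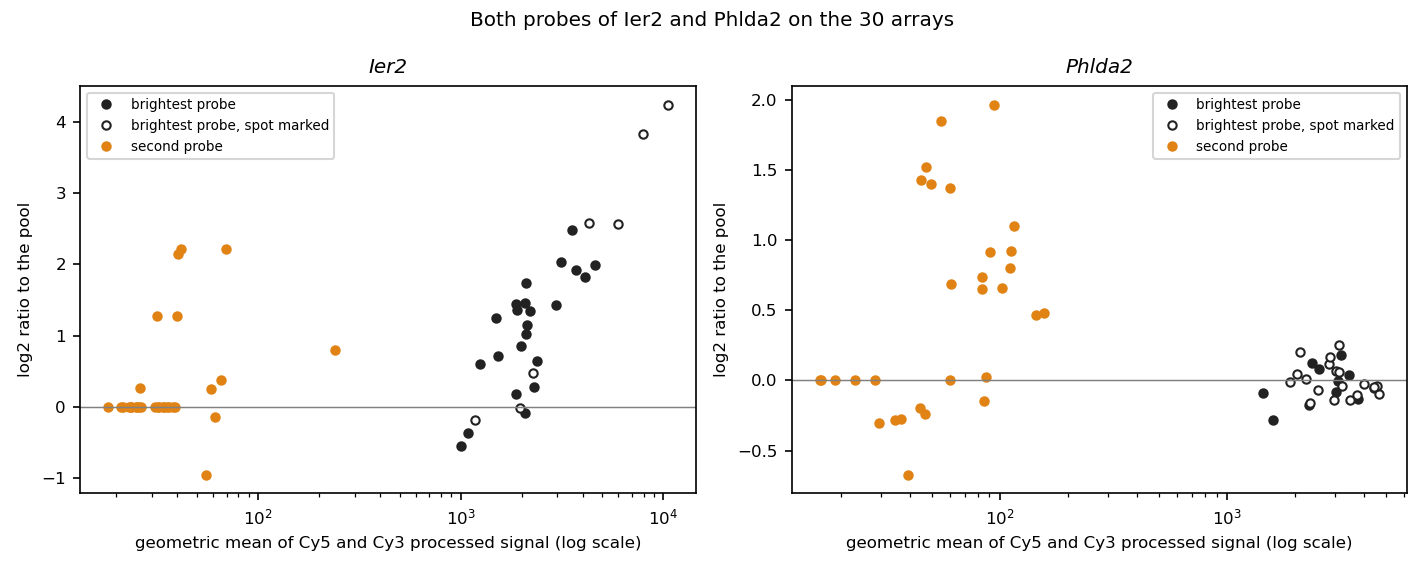
Log2 ratio to the untreated pool (y axis) against the geometric mean of the processed Cy5 and Cy3 signals (x axis, log scale) for both probes of Ier2 and of Phlda2, with 1 point per array and probe (30 arrays), black for the brighter probe, open where its spot was marked as an outlier, and orange for the dimmer one. The Ier2 values of the brighter probe reach 4.25 at its highest signals while the dimmer probe, many of whose ratios are 0, stays at signals where few spots are above background, and for Phlda2 the dimmer probe spreads while the brighter one stays near 0.

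The genes lie apart in the genome, apart from Ier5 and Phlda3 on the same chromosome. In the mouse build GRCm38.p6 Ier2 is at chr8:84661331-84662852, Ier3 at chr17:35821713-35822911, Ier5 at chr1:155096367-155099636, Phlda1 at chr10:111506286-111508649, Phlda2 at chr7:143501545-143503145 and Phlda3 at chr1:135766085-135769134. The 250 bases before the start of 4 members are shown, 5′ to 3′ on the gene's strand, because Ier3 and Ier5 responded to stress and Phlda2 and Phlda3 responded little or not. They were read from RefSeq for the same build, at chr17:35821463-35821712 (plus strand) for Ier3, chr1:155099637-155099886 (minus) for Ier5, chr7:143502525-143502774 (minus) for Phlda2 and chr1:135765835-135766084 (plus) for Phlda3. The Ier3, Ier5 and Phlda3 windows adjoin the gene spans given above. That of Phlda2 lies inside its span, so the start used for it is not the end of that span. Capitals mark motif matches on either strand.
Ier3: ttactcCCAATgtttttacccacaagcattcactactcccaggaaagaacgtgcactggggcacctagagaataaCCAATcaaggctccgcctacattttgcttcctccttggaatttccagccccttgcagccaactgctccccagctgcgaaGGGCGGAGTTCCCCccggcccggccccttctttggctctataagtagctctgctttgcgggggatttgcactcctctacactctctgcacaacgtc
Ier5: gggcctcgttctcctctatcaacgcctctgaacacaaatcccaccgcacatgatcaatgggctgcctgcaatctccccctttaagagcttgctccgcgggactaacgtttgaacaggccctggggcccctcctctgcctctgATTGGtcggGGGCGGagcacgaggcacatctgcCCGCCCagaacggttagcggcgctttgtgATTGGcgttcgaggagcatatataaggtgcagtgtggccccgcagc
Phlda2: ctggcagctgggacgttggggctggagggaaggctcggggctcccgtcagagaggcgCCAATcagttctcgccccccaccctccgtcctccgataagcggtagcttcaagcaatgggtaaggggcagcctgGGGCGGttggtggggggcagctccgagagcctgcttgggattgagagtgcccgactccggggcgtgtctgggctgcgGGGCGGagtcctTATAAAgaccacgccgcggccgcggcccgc
Phlda3: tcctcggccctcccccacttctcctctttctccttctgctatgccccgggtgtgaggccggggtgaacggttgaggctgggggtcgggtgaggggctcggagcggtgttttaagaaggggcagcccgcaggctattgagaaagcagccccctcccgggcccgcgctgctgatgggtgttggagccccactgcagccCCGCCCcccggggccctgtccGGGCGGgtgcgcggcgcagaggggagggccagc

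Motifs searched on both strands were the AP-1 site TGANTCA, the CRE TGACGTCA, the TATA box TATAAA, the CCAAT box CCAAT, the GC box GGGCGG, and the CArG box and NF-kB site. Among 32851 RefSeq promoters of 250 bases, from 27025 genes, these letters were held by 6.75%, 1.55%, 12.4%, 33.8%, 32.7%, 1.47% and 7.25%, in that order. The Ier3 window held an NF-kB site on the minus strand, 92 to 83 bases before the start, which overlaps a GC box at 96 to 91, and CCAAT boxes at 244 to 240 and 175 to 171. Ier5 held 2 CCAAT boxes on the minus strand and 2 GC boxes. The Phlda2 window held a TATA box 30 to 25 bases before the start used for it, which lies inside the gene span. It also held a CCAAT box at 193 to 189 and 2 GC boxes, and Phlda3 held 2 GC boxes and none of the other motifs. The GC content was 54.4% for Ier3, 60% for Ier5, 68.8% for Phlda2 and 71.2% for Phlda3. A match is a match of letters, and whether a factor binds there was not measured. Promoters of Ier2 and Phlda1 are not shown.

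**Figure D2:**
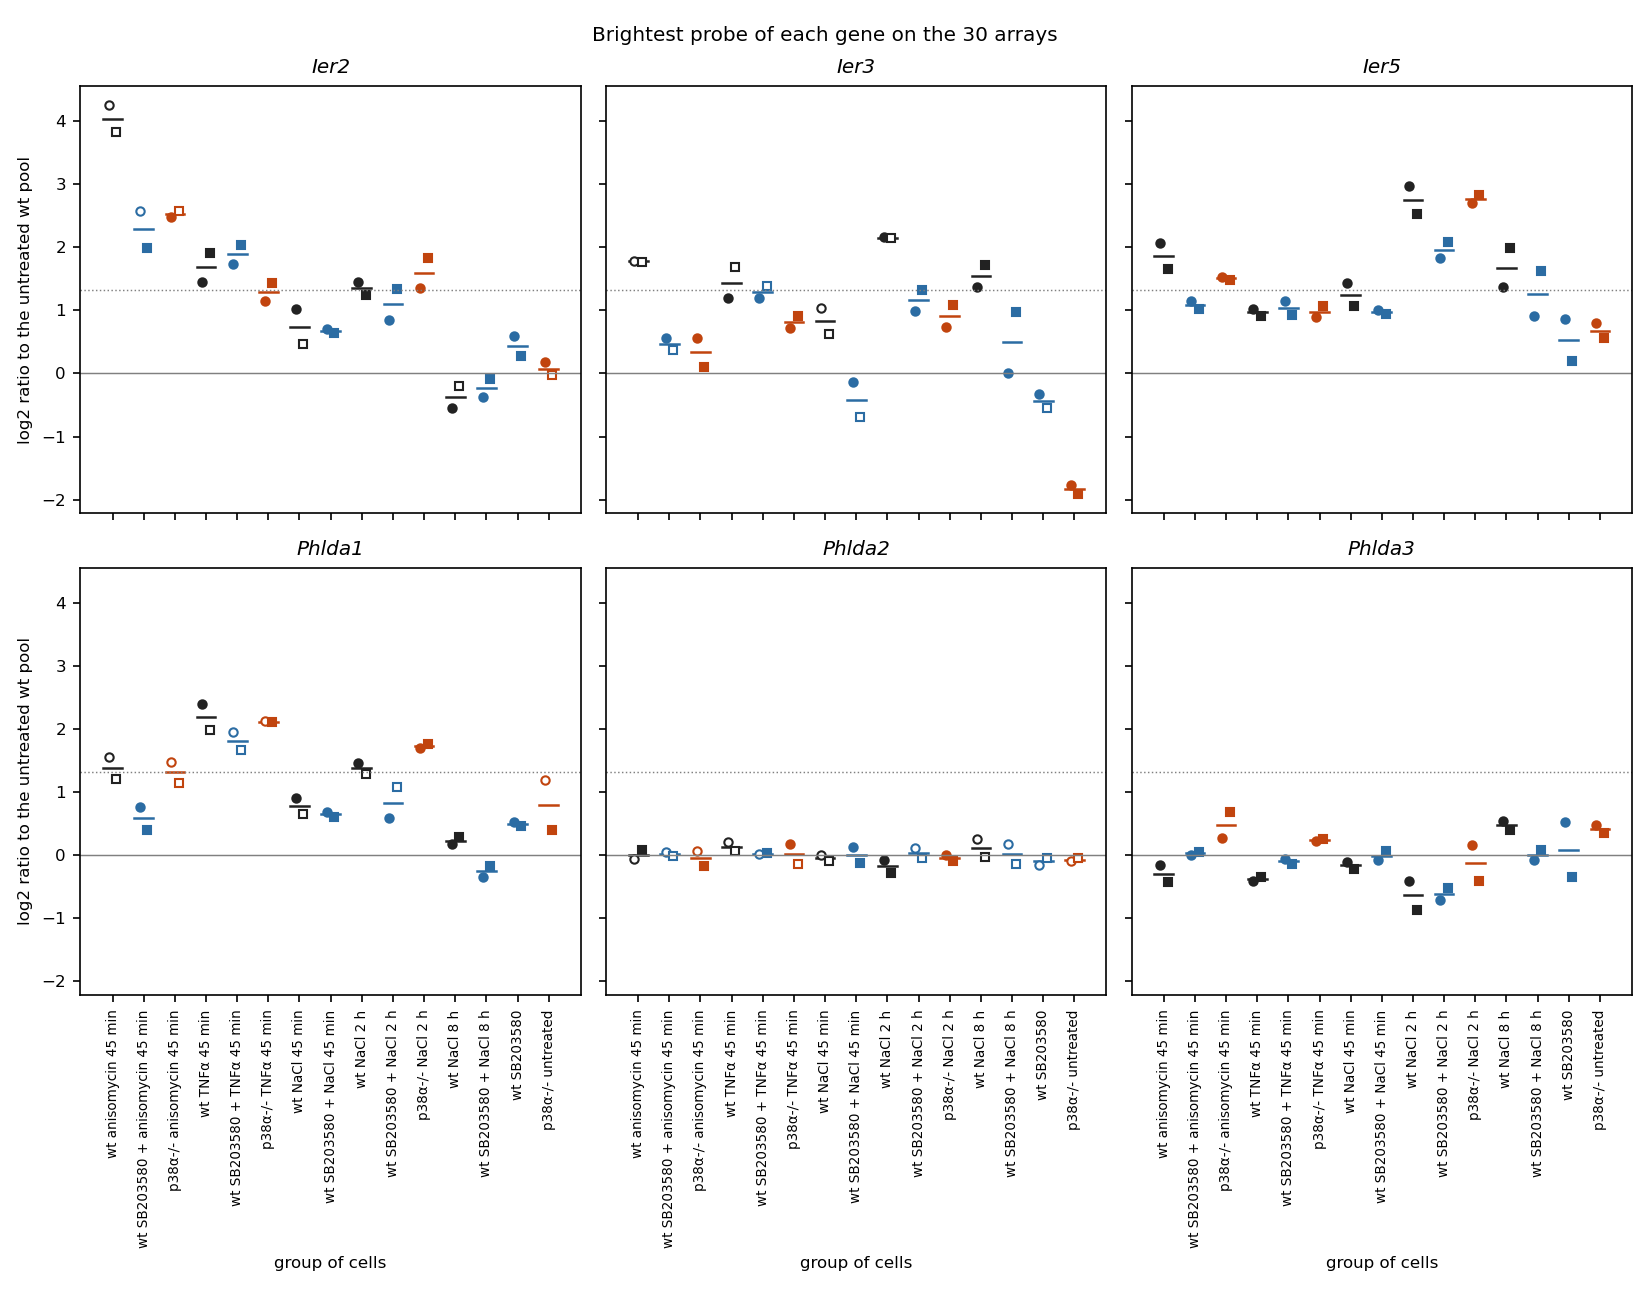
Log2 ratio to the untreated wt pool (y axis) of the brighter probe of each member on all 30 arrays, by group (x axis), with circles for replicate 1, squares for replicate 2, open symbols for spots marked as outliers, bars for the mean of 2, black for wt, blue for wt with SB203580, orange for p38α-/- MEFs, and a dotted line at 2.5-fold. Ier2 peaks with anisomycin, Phlda1 with TNFα, Ier3 and Ier5 with NaCl at 2 h, and Phlda2 lies near 0 throughout.

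With anisomycin in wt MEFs, 4 of the 6 members rose and none fell, against 28.9% of all 21689 genes called in either direction. The members' median log2 ratio was 1.58 where that of all genes was -0.08. The averaged fit measured 4 members on both arrays and called Ier2 and Ier5, against 12% of all genes. With TNFα, 4 members rose, against 27% of genes called, with a members' median of 1.21 and -0.07 over all genes, and the averaged fit called Ier5 alone of 4, against 11%. After 45 min of NaCl 4 members rose, against 22.2% of genes, with medians of 0.76 and -0.06, and the averaged fit called Ier2 and Ier5 of 4, against 9.88%. After 2 h of NaCl 4 members rose and Phlda3 fell, against 24.1%, with medians of 1.36 and -0.04, and the averaged fit called Ier5 and Phlda3 of 4, against 9.92%. At 8 h Ier3, Ier5 and Phlda3 rose, against 26%, with medians of 0.35 and -0.04. The averaged fit called those 3 and Phlda2 at 8 h, against 22.2%. The shares of all genes called against the pool are large, so that being called is in itself no mark of these genes, and the sizes are given below.

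Ier2 showed the largest ratio of the 6 members, in wt MEFs with anisomycin, at 4.25 and 3.83 on the 2 arrays. This mean of 4.04 ± 0.30 (SD, n = 2) is 16.4-fold over the pool (adjusted p = 3.37e-11). With TNFα Ier2 was at 1.45 and 1.91 (adjusted p = 3.98e-06). It was at 1.02 and 0.47 after 45 min of NaCl (adjusted p = 0.00553) and at 1.45 and 1.25 after 2 h (adjusted p = 3.86e-05). By 8 h of NaCl it was at -0.55 and -0.19, at or below the pool (adjusted p = 0.136). The anisomycin group stood above all other groups by more than the sum of the neighbours' SDs, and no other neighbours in the order of the 15 groups were apart by that much. Next in that order were anisomycin in p38α-/- MEFs (2.53 ± 0.07) and anisomycin after SB203580 (2.29 ± 0.41), and the lowest were NaCl at 8 h with and without SB203580. Marked as outliers were both wt anisomycin spots and 1 spot each in the groups of untreated and anisomycin-treated p38α-/- MEFs, NaCl at 45 min and 8 h, and SB203580 with anisomycin. In the averaged fit, where the dim probe alone stands for Ier2 on the anisomycin arrays, the log2 mean there was 1.29 (adjusted p = 0.0374), a call lost without replicate 2 of that group (0.37, adjusted p = 0.662). The call at 45 min of NaCl was lost without replicate 1 (0.47, adjusted p = 0.293).

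Ier3 differed from Ier2 in its time course and in its level without p38α. It was at 1.79 and 1.77 with anisomycin (adjusted p = 4.13e-06), at 1.19 and 1.68 with TNFα (adjusted p = 4.14e-05) and at 1.03 and 0.62 after 45 min of NaCl (adjusted p = 0.00446). NaCl for 2 h gave its highest group mean, with arrays at 2.16 and 2.15, 4.44-fold over the pool (adjusted p = 8.24e-07), and at 8 h it was still at 1.37 and 1.72 (adjusted p = 8.62e-06). In untreated p38α-/- MEFs Ier3 was at -1.76 and -1.91, the lowest of the 15 groups and apart from the next by more than the sum of the SDs. This mean of -1.84 ± 0.10 is 3.57-fold below the wt pool (adjusted p = 3.51e-06, and adjusted p = 0.000499 in the averaged fit). With SB203580 alone Ier3 was at -0.32 and -0.54, which did not pass the test (adjusted p = 0.0667). Of its spots, 10 were marked, among them both of wt anisomycin and both of NaCl at 45 min, so the averaged fit gave no value there. The call at 45 min of NaCl was lost without replicate 1 (0.62, adjusted p = 0.208).

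Ier5, with no marked spot and 1 probe, had the same log2 values in both fits. It was at 2.06 and 1.66 with anisomycin (adjusted p = 1.43e-06), at 1.03 and 0.92 with TNFα (adjusted p = 0.000637) and at 1.43 and 1.06 after 45 min of NaCl (adjusted p = 0.000122). Its highest levels were after 2 h of NaCl, at 2.97 and 2.53 in wt and 2.71 and 2.82 in p38α-/- MEFs, 6.73-fold and 6.79-fold over the pool, and these stood above all other groups by more than the sum of the SDs. At 8 h it was at 1.36 and 1.99 (adjusted p = 1.59e-06). Ier5 was above the pool on all 30 arrays, including those of cells with no stress: SB203580 alone gave 0.87 and 0.20 (adjusted p = 0.0194) and untreated p38α-/- MEFs 0.80 and 0.56 (adjusted p = 0.00794). Without replicate 1 these values were 0.20 (adjusted p = 0.601) and 0.56 (adjusted p = 0.239), and neither call was kept. The lowest group mean of Ier5 was thus 0.53 ± 0.47, with the 2 arrays far apart. Since the sample was in Cy5 on every array, an offset of this probe between the dyes cannot be told apart from a level above the pool.

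Phlda1 was the member with its highest level after TNFα, at 2.39 and 1.99 in wt MEFs (adjusted p = 4.2e-08) and 2.12 and 2.11 in p38α-/- MEFs (adjusted p = 7.32e-08). These 2 groups did not differ beyond their spread. Next in the order were SB203580 with TNFα at 1.80 ± 0.20 and p38α-/- MEFs with NaCl for 2 h at 1.73 ± 0.05. The former was apart from its upper neighbour and the latter from its lower one by more than the sum of the SDs. Only neighbours were compared in this way, so SB203580 with TNFα is not shown to be apart from wt TNFα. Anisomycin gave 1.55 and 1.21 (adjusted p = 8.15e-06). NaCl gave 0.91 and 0.66 at 45 min (adjusted p = 0.00181), 1.47 and 1.29 at 2 h (adjusted p = 1.17e-05) and 0.17 and 0.28 at 8 h (adjusted p = 0.339). The call at 45 min of NaCl was lost without replicate 1 (0.66, adjusted p = 0.113). The lowest level was at 8 h of NaCl after SB203580, at -0.34 and -0.17. Untreated p38α-/- MEFs were at 1.19 and 0.39 (adjusted p = 0.00111), a call lost without replicate 1 (0.39, adjusted p = 0.25). Of its spots, 12 were marked, and the averaged fit had no value for Phlda1 in wt MEFs at 45 min or 2 h.

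Phlda2 did not pass the test in any of the 15 groups in the single-probe fit, and its group means lay between -0.18 and 0.13, with no neighbours in their order apart by more than the sum of their SDs. Of the 30 spots of its brighter probe 20 were marked as outliers. In the averaged fit Phlda2 passed at 8 h of NaCl, with a log2 mean of 1.91 (adjusted p = 0.00151), where the brighter probe alone gave 0.11 (adjusted p = 0.496). Both spots of the brighter probe were marked there, so the averaged value came from the dimmer probe, whose Cy5 signals were 105 and 186 where those of the brighter probe were 3407.4 and 4511.6. With another background correction (normexp) the dimmer probe gave 0.25 and 0.48 on the same arrays.

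Phlda3 fell after 2 h of NaCl, at -0.41 and -0.87 (adjusted p = 0.00738), and also with SB203580 before it, at -0.72 and -0.53 (adjusted p = 0.00753). At 8 h it rose, at 0.54 and 0.40 (adjusted p = 0.0361). Anisomycin in p38α-/- MEFs gave 0.26 and 0.68 (adjusted p = 0.0405, and adjusted p = 0.0633 in the averaged fit). Each of these 4 calls was lost without 1 of the arrays of its own group, with adjusted p up to 0.205 at 2 h, 0.133 at 2 h after SB203580, 0.299 at 8 h and 0.59 with anisomycin. In wt MEFs Phlda3 was at -0.15 and -0.43 with anisomycin, -0.42 and -0.35 with TNFα and -0.10 and -0.23 after 45 min of NaCl, and none of these passed. The 2 wt groups with 2 h of NaCl, with and without SB203580, were the lowest for this gene, and p38α-/- MEFs with NaCl for 2 h were at 0.16 and -0.41, 10th of the 15 groups.

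The stresses were compared with each other at 45 min in wt MEFs, where the pool cancels. Ier2 was higher with anisomycin than with TNFα, by 2.36 ± 0.25 (SE) on the log2 scale (adjusted p = 3.27e-05), and than with NaCl, by 3.29 ± 0.25 (adjusted p = 8.99e-07). Phlda1 was higher with TNFα than with NaCl, by 1.41 ± 0.22 (adjusted p = 0.00446), a call lost without NaCl replicate 2 (1.28, adjusted p = 0.0936) or TNFα replicate 1 (1.21, adjusted p = 0.202). Thus 1 of 6 members differed in each of the 3 comparisons, where 0.184%, 0.217% and 0.263% of all genes did. On its dim probe, in the averaged fit, the Ier2 difference between anisomycin and NaCl had the opposite sign (-0.39, adjusted p = 1). Phlda1 differed between anisomycin and TNFα by -0.81 (95% interval from -1.27 to -0.34; adjusted p = 0.383), and Ier5 by 0.89 in the other direction (adjusted p = 0.42), and neither passed. Ier3, at 1.78 and 1.44 on average, did not pass either, with an interval from -0.22 to 0.90. In the averaged fit 0 of 12 differences passed in limma, against 0.233% of all genes, and 2 had an unadjusted p under 0.05.

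**Figure D3:**
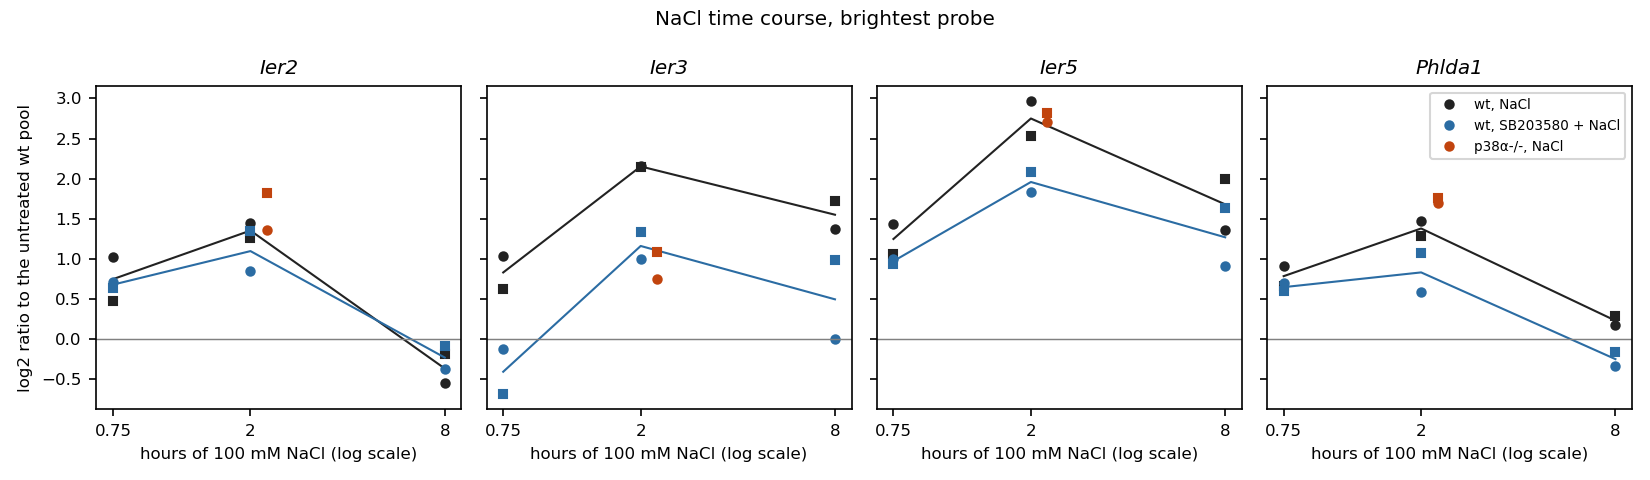
Log2 ratio to the untreated wt pool (y axis) of Ier2, Ier3, Ier5 and Phlda1 against hours of NaCl (x axis, log scale) in wt MEFs (black), wt MEFs with SB203580 (blue) and, at 2 h, p38α-/- MEFs (orange), with circles for replicate 1, squares for replicate 2 and lines through the means of 2 arrays. In wt MEFs Ier2 and Phlda1 return to near 0 by 8 h, while Ier3 and Ier5 are still at 1.55 and 1.68.

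Over the NaCl time course the members took different paths. Between 45 min and 2 h Ier5 rose 2.84-fold (log2 interval from 0.98 to 2.03, adjusted p = 0.019), 1 of 6 members against 0.171% of all genes. This call was lost without replicate 1 at 2 h (1.28, adjusted p = 0.199) or either array at 45 min (adjusted p = 0.0775 and 0.268). Ier3 differed by 1.32 ± 0.27 between these times (adjusted p = 0.0527, and 0.0424 with the replicate number as a block). Between 2 h and 8 h Ier2 fell by -1.72 ± 0.25 as a signed log2 difference (adjusted p = 0.000243), Phlda1 by -1.15 ± 0.22 (adjusted p = 0.00274) and Ier5 by -1.07 ± 0.25 (adjusted p = 0.0106), while Phlda3 rose by 1.11 ± 0.23 (adjusted p = 0.00403). These are 4 of 6 members, 3 of them lower, against 7.94% of all genes. The Ier5 call was lost without replicate 1 at 2 h (adjusted p = 0.139) or at 8 h (-0.76, adjusted p = 0.193), and that of Phlda3 without replicate 2 at 2 h (adjusted p = 0.0671). Ier3 did not pass between 2 h and 8 h (-0.60, interval from -1.17 to -0.04, adjusted p = 0.219). From 45 min to 8 h Ier2 alone passed, with -1.12 ± 0.25 (adjusted p = 0.00777), against 7.69% of genes, a call lost without replicate 1 at 45 min (adjusted p = 0.146) or at 8 h (adjusted p = 0.099). The averaged fit called 4 of 12 differences over time, against 5.28% of all genes: those of Ier5 between 45 min and 2 h and between 2 h and 8 h, and those of Phlda3 and, on its dim probe, Phlda2 between 2 h and 8 h.

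With SB203580 alone 3 of 6 members passed, a share like the 48.6% of all genes called in either direction. All 3 passed above the pool, where 3615 of all 21689 genes did. Ier2 was at 0.60 and 0.27, Ier5 at the values above and Phlda1 at 0.52 and 0.45. The Ier2 call (adjusted p = 0.0488) was lost in 16 of 30 omissions of 1 array, both of its own among them (adjusted p up to 0.489), and that of Phlda1 without either of its own arrays (adjusted p = 0.187 and 0.0716). After SB203580, members above the pool were 3 with anisomycin, 4 with TNFα and 3 at 45 min of NaCl. Of all 21689 genes, 27.3%, 25.2% and 36.6% were called there in either direction, and 1879, 2122 and 2704 genes were called above the pool. At 2 h of NaCl 4 members were above and Phlda3 was below, against 29.6% in either direction (2579 genes above). At 8 h Ier5 alone was above, against 29.4% in either direction (2462 genes above). Ier5 passed in each of these 5 groups. Ier3 passed with TNFα and NaCl at 2 h only. Calls lost without 1 array of their own group were those of Ier2 and Phlda1 at 45 min of NaCl, without either (adjusted p up to 0.0819 and 0.0605), Phlda1 with anisomycin, without replicate 1 (0.40, adjusted p = 0.259), and Phlda1 at 2 h, without replicate 2 (0.58, adjusted p = 0.116).

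The direct question is whether a stressed culture given SB203580 differed from a stressed culture without it. Of 30 such differences Ier2 with anisomycin passed, lower by -1.75 ± 0.25 on the log2 scale (95% interval from -2.27 to -1.23; adjusted p = 0.00581), with arrays at 2.58 and 2.00 against 4.25 and 3.83. The groups did not overlap, but with 2 arrays each this is a weak mark, and its share over all genes was not counted. It was 1 of 6 members, against 0.0415% of all genes, 9 in number, with anisomycin. Within the 2 scan batches, each holding 1 array of either group, the difference was -1.67 and -1.83. The call was lost without anisomycin replicate 1 (-1.54, adjusted p = 0.161) or replicate 2 of the inhibitor group (-1.46, adjusted p = 0.149). In the averaged fit this difference, on the dim probe for the wt arrays, was -0.66 (adjusted p = 1).

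Ier3 was lower after SB203580 by similar amounts in 4 of the 5 stresses, none of which passed over all genes. With anisomycin its arrays were at 0.56 and 0.37 against 1.79 and 1.77, a difference of -1.31 (95% interval from -1.87 to -0.75; unadjusted p = 0.000113, adjusted p = 0.188). At 45 min of NaCl they were at -0.13 and -0.70 against 1.03 and 0.62, a difference of -1.24 (from -1.80 to -0.68; adjusted p = 0.998). At 2 h they were at 0.99 and 1.33 against 2.16 and 2.15, a difference of -0.99 (from -1.56 to -0.43; adjusted p = 0.992), and at 8 h at 0.00 and 0.98 against 1.37 and 1.72, a difference of -1.06 (from -1.62 to -0.49; adjusted p = 0.194). In these 4 stresses both arrays with the inhibitor lay below both without it, and the 8 differences within a scan batch ran from -1.40 to -0.74. How many of all genes are separated in this way was not counted, so the separation does not stand in for a passed test. With TNFα the arrays were at 1.19 and 1.39 against 1.19 and 1.68, a difference of -0.15 with an interval from -0.71 to 0.42.

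For the other members the inhibitor differences did not pass. Ier5 differed by -0.78 with anisomycin (from -1.30 to -0.25) and by -0.79 at 2 h of NaCl (from -1.32 to -0.27), and Phlda1 by -0.80 with anisomycin (from -1.27 to -0.33). With TNFα the difference was 0.20 for Ier2 (from -0.32 to 0.73), 0.07 for Ier5 (from -0.46 to 0.59) and -0.38 for Phlda1 (from -0.85 to 0.08). In limma 0 of 6 members passed with TNFα, against 0% of all genes, and 0 had an unadjusted p under 0.05. At 45 min of NaCl 0 passed, against 0%, and 1 had an unadjusted p under 0.05. At 2 h 0 passed, against 0.00461%, with 3 under 0.05 unadjusted, and at 8 h 0 passed, against 0.166%, with 2. With so few genes called at all, a missed threshold here says little about the members.

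A second comparison takes each response over the unstressed level of its own arm, which is SB203580 alone for the inhibitor groups and the pool for wt MEFs, so that the pool does not cancel in it. It called far more genes than the direct difference and is not a stricter test. It asks whether the response itself, stress over no stress, was smaller with the inhibitor. All 5 such comparisons use the same 2 arrays of SB203580 alone. No untreated wt sample was measured in Cy5, so a probe's offset between the dyes cancels in the inhibitor arm but not in wt. Such an offset was not measured and cannot be told apart from a change of response. The level with SB203580 alone, 0.53 for Ier5 and 0.49 for Phlda1, is subtracted and so lowers their values. With anisomycin the response was smaller for Ier2 by -2.19 ± 0.31 (adjusted p = 0.00187), for Ier5 by -1.31 ± 0.31 (adjusted p = 0.0169, and adjusted p = 0.0583 in the averaged fit) and for Phlda1 by -1.29 ± 0.27 (adjusted p = 0.0129), given as signed log2 differences. These are 3 of 6 members, against 13.2% of all genes called in either direction, with 603 of 21689 genes lower. The median over all genes was 0.13, of the opposite sign. With TNFα Phlda1 passed, at -0.87 ± 0.27 (adjusted p = 0.0438), against 12.7%. At 2 h of NaCl Ier5, at -1.32 ± 0.31 (adjusted p = 0.0133, and adjusted p = 0.0401 in the averaged fit), and Phlda1, at -1.03 ± 0.27 (adjusted p = 0.0229), passed, against 14.2%. At 8 h Phlda1 passed, at -0.97 ± 0.27 (adjusted p = 0.0434, and adjusted p = 0.0642 in the averaged fit), against 6.26%. Time with SB203580 may differ between this group and SB203580 alone. At 45 min of NaCl 0 members passed in limma, against 1.45%, and 3 had an unadjusted p under 0.05. Within the scan batches the Ier2 value with anisomycin was -2.26 and -2.11, that of Ier5 -1.78 and -0.83, and that of Phlda1 -1.31 and -1.26. At 2 h of NaCl they were -2.01 and -0.64 for Ier5 and -1.40 and -0.67 for Phlda1. The Ier2 call held without any 1 of the 30 arrays. The Ier5 and Phlda1 calls with anisomycin and at 2 h of NaCl were each lost in 3 of 30 omissions, always of replicate 1 of a group compared (highest adjusted p = 0.133, 0.112, 0.131 and 0.159). The averaged fit lost its Ier5 call at 2 h of NaCl in 10 of 30 omissions (-0.99 and adjusted p = 0.345 without SB203580 replicate 1). The Phlda1 calls with TNFα and at 8 h were lost in 12 and 9 (highest adjusted p = 0.19 and 0.208). Taking both kinds of difference, the single-probe fit called 8 of 60, all lower with SB203580. Of all genes it called 4.79%, 3.62% higher and 1.17% lower. The averaged fit called 1 of 43, against 0.349% of all genes.

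Within the inhibitor groups themselves, each stress was set against SB203580 alone, a comparison that does not use the pool. The titles give the same 2 h of SB203580 for all these groups. If the inhibitor stayed on during 8 h of NaCl, its time was longer there than alone. It could then not be told apart from NaCl time. With anisomycin Ier2 rose by 1.85 ± 0.25 (adjusted p = 0.00331), 1 of 6 members against 0.0369% of all genes. With TNFα Ier2 rose by 1.45 ± 0.25 (adjusted p = 0.0131), Ier3 by 1.72 ± 0.27 (adjusted p = 0.00435) and Phlda1 by 1.32 ± 0.22 (adjusted p = 0.0112), 3 of 6 against 0.129%. At 45 min of NaCl 0 of 6 passed in limma, against 0.0277%, and 0 had an unadjusted p under 0.05. At 2 h Ier3 rose by 1.59 ± 0.27 (adjusted p = 0.00167) and Ier5 by 1.43 ± 0.25 (adjusted p = 0.00249), 2 of 6 against 2.72% called in either direction. At 8 h Ier3 rose by 0.92 ± 0.27 (adjusted p = 0.0387) and Phlda1 was lower, at -0.74 ± 0.22 (adjusted p = 0.0462), 2 of 6 against 8.33%. The calls of Ier3 and Ier5 at 2 h held without any 1 array. The others were lost in 1 to 18 of 30 omissions, with the highest adjusted p at 0.0708 for Ier2 with anisomycin, 0.266, 0.104 and 0.278 for Ier2, Ier3 and Phlda1 with TNFα, and 0.335 and 0.289 for Ier3 and Phlda1 at 8 h.

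In p38α-/- MEFs, 3 members differed from the wt pool without stress, against 29.4% of all genes: Ier3 was lower, and Ier5 and Phlda1 were higher, as given above. Under stress, 4 of 6 members were above the wt pool with anisomycin, 4 with TNFα and 4 with NaCl at 2 h. Of all 21689 genes, 22.7%, 14.4% and 24.6% were called there in either direction, and 1901, 1044 and 2427 genes were called above the pool. Ier3 was not among the members above it with anisomycin, at 0.56 and 0.10 (adjusted p = 0.232). It was at 0.72 and 0.90 with TNFα and at 0.74 and 1.08 with NaCl at 2 h. The TNFα call of Ier3 was lost without either array of its group (adjusted p = 0.11 and 0.117) and the NaCl call without replicate 2 (0.74, adjusted p = 0.086).

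Against wt MEFs under the same stress, Ier2 was lower in p38α-/- MEFs with anisomycin, at 2.48 and 2.57 against 4.25 and 3.83, a difference of -1.51 ± 0.25 (adjusted p = 0.00321). Ier3 was lower by -1.44 ± 0.27 with anisomycin (adjusted p = 0.00845), and with Ier2 it made 2 of 6 members, against 1.34% of all genes. At 2 h of NaCl Ier3 was lower by -1.24 ± 0.27 (adjusted p = 0.0277), 1 of 6 against 1.13%. In all 3 the arrays of the 2 genotypes did not overlap, again without a count of such separations over all genes. With TNFα 0 of 6 members passed in limma, against 0.47%, and 2 had an unadjusted p under 0.05. With NaCl for 2 h Ier5 differed between the genotypes by 0.01 (from -0.51 to 0.54), and with TNFα Phlda1 by -0.07 (from -0.54 to 0.40), 2 intervals that include 0. For Phlda3 the differences between p38α-/- and wt MEFs under the 3 stresses were 0.77, 0.62 and 0.52, and none of these passed (adjusted p = 0.123, 0.408 and 0.311). Replicate 1 of the p38α-/- groups was scanned with replicate 2 of the wt groups, and within that batch the 3 differences that passed were -1.35, -1.20 and -1.40. The Ier2 call was lost without wt anisomycin replicate 1 (-1.30, adjusted p = 0.0872), the Ier3 call with anisomycin in 3 of 30 omissions (adjusted p up to 0.133) and at 2 h without any 1 of its 4 arrays (adjusted p = 0.0782 to 0.147). In a fit of the compared arrays alone, none of the differences with p38α-/- MEFs passed.

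The responses of the p38α-/- MEFs over their own unstressed level take the 2 untreated p38α-/- arrays as their reference. Ier3 rose over untreated p38α-/- MEFs by 2.17 ± 0.27 with anisomycin (adjusted p = 0.000723), 2.65 ± 0.27 with TNFα (adjusted p = 3.4e-05) and 2.75 ± 0.27 with NaCl at 2 h (adjusted p = 2.07e-05), and the averaged fit called all 3, those with anisomycin and TNFα less firmly, since they were lost there in 12 and 4 of 30 omissions (adjusted p up to 0.255 and 0.0846). Ier2 rose by 2.45 ± 0.25 with anisomycin (adjusted p = 7.26e-05) and 1.51 ± 0.25 with NaCl (adjusted p = 0.00406), Ier5 by 2.09 ± 0.25 with NaCl (adjusted p = 0.000166) and Phlda1 by 1.32 ± 0.22 with TNFα (adjusted p = 0.0144). Thus 2 of 6 members rose with anisomycin, against 0.0738% of all genes called in either direction, 2 with TNFα, against 0.111%, and 3 with NaCl, against 0.977%. Ier2 with NaCl was lost without NaCl replicate 2 (1.28, adjusted p = 0.126) or untreated replicate 2 (1.41, adjusted p = 0.0522), and Phlda1 with TNFα in 3 of 30 omissions (adjusted p up to 0.384). Phlda1 differed by 0.94 ± 0.22 with NaCl (adjusted p = 0.0513, and 0.0221 with the replicate number as a block). Over all inductions within an arm, the single-probe fit called 15 of 48, against 1.55% of all genes, and the averaged fit 6 of 38, against 1.47% of all genes.

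Set against the response in wt MEFs, the response to anisomycin was smaller in p38α-/- MEFs for Ier2, by -1.59 ± 0.31 (adjusted p = 0.00403). It was also smaller for Ier5, by -1.03 ± 0.31 (adjusted p = 0.0417, and adjusted p = 0.126 in the averaged fit). These are 2 of 6 members, against 9.77% of all genes. Here too the pool stands for unstressed wt MEFs, so a probe's offset between the dyes would enter. With anisomycin Ier5 itself was at 1.51 in p38α-/- and 1.86 in wt MEFs on average, a difference that did not pass. Its mean in untreated p38α-/- MEFs, 0.68, is subtracted and so lowers its value. The anisomycin response of Phlda1 differed by -0.86 ± 0.27 (adjusted p = 0.0522, and 0.0288 with the block). With TNFα the response of Ier3 was larger in p38α-/- MEFs, by 1.21 ± 0.33 (adjusted p = 0.0249), and that of Phlda1 smaller, at -0.86 ± 0.27 (adjusted p = 0.048), 2 of 6 against 11.3%. With NaCl at 2 h 0 of 6 passed in limma, against 6.4%, and 1 had an unadjusted p under 0.05. In the shared scan batch the values were -1.53 and -0.92 with anisomycin and 0.80 and -1.06 with TNFα. The Ier2 call was lost without wt anisomycin replicate 1 alone (-1.38, adjusted p = 0.0519). The others were lost in 10 of 30 omissions for Ier5 (adjusted p up to 0.255), 6 for Ier3 (up to 0.108) and 25 for Phlda1, where without untreated p38α-/- replicate 1 the difference was -0.47 (adjusted p = 0.429). The inhibitor and p38α-/- comparisons use the same wt stress arrays and the same pool, so that a chance deviation of those arrays enters both. In all, the single-probe fit called 7 of 36 differences with p38α-/- MEFs, 6 lower and 1 higher. Of all genes it called 5.07%, 1.01% lower and 4.07% higher. The averaged fit called 0 of 24 in limma, against 0.567% of all genes, with 7 at an unadjusted p under 0.05. Of ratios to the pool the single-probe fit called 54 of 90, 51 of them up, where 27.7% of all genes were called, 9.98% up and 17.7% down. The averaged fit called 31 of 73, 28 of them up, against 14.7% of all genes.

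**Figure D4:**
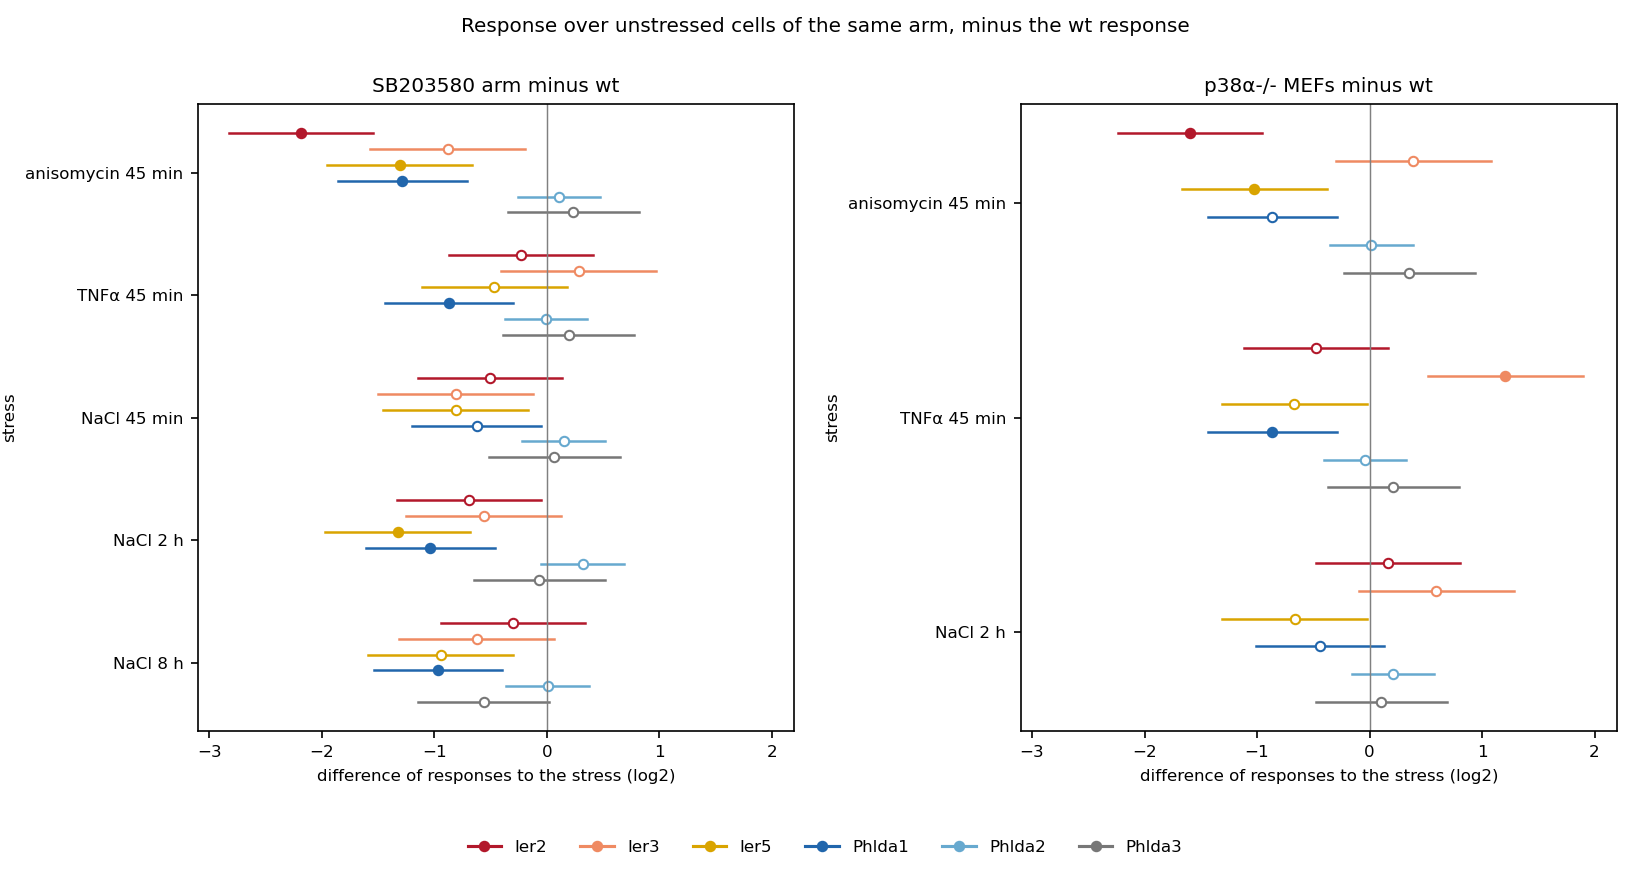
Difference between the response to a stress in an arm and that in wt MEFs (x axis, log2), by stress (y axis), for the SB203580 arm on the left and p38α-/- MEFs on the right, with 95% intervals from the single-probe fit (2 arrays per group), 1 colour per member and filled points where the adjusted p was under 0.05. Negative values are smaller responses than in wt MEFs, for which the pool stands as the unstressed level. The lowest are Ier2 with anisomycin in both arms, at -2.19 and -1.59. The filled point to the right of 0 is Ier3 with TNFα in p38α-/- MEFs, at 1.21.

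A list of 58 other immediate early genes, 55 of them on the array and none of them a member, was read beside the members. In the single-probe fit 34 of 55 were up and 6 down with anisomycin, 32 and 1 with TNFα, 18 and 5 at 45 min of NaCl, 30 and 2 at 2 h, and 14 and 4 at 8 h, beside the same shares of all genes as for the members, with medians of 1.18, 0.67, 0.34, 0.85 and 0.02 on the log2 scale. The AP-1 subunit Jun led with anisomycin, at 6.21 and 5.85, 65.3-fold over the pool (adjusted p = 3.36e-12), with Btg2, an antiproliferative gene, next at 39.9-fold. Tnfaip3, a negative regulator of NF-κB, led with TNFα at 5.69 and 4.98, 40.4-fold (adjusted p = 7.45e-11). Fos, the partner of Jun in AP-1, led at 45 min and 2 h of NaCl, 8.63-fold and 15.6-fold over the pool. At 8 h of NaCl the list's highest genes were the kinase gene Sgk, 13.1-fold, and Ptgs2, 7.79-fold. The related gene Ier5l, in this list and at chr2:30472631-30474199, was at 2.68 and 2.09 with anisomycin (adjusted p = 2.28e-08) and at 1.79 after SB203580 and 1.75 in p38α-/- MEFs on average. On the brighter probe of Ier5l the response to anisomycin was smaller in both arms, by -1.19 ± 0.28 (adjusted p = 0.0167) and -1.24 ± 0.28 (adjusted p = 0.0099). Its dimmer probe was also well above background on 30 arrays. With anisomycin that probe gave 1.78 and 1.43 in wt MEFs, 0.90 and 1.00 after SB203580 and 0.90 and 1.43 in p38α-/- MEFs. Unstressed arrays lay below the pool there, at -0.475 and -0.063 with SB203580 and -0.543 and -0.075 in p38α-/- MEFs. On the brighter probe they lay above it. The dimmer probe was not tested.

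Since Phlda3 is a p53 target, 19 genes of a list of 21 p53 targets on the array were counted as well. In the single-probe fit 4 were up and 6 down with anisomycin, 5 and 6 with TNFα, 2 and 5 at 45 min of NaCl, 2 and 4 at 2 h, and 1 and 7 at 8 h, beside the shares of all genes called in these 5 comparisons, 28.9%, 27%, 22.2%, 24.1% and 26%. Pmaip1, which encodes the cell death protein Noxa, was the highest with anisomycin, 3.03-fold over the pool (adjusted p = 0.000116), and with TNFα, at 1.86 and 1.82 (adjusted p = 4.57e-05). At 2 h of NaCl the 2 genes that rose were Pmaip1, at 1.27 and 1.18 (adjusted p = 0.00158), and Rrm2b, a ribonucleotide reductase subunit, at 1.08 and 0.33 (adjusted p = 0.00494). The 4 that fell, named here after their values were seen, were Bbc3 at -0.78 on average, Tnfrsf10b at -0.45, Bax at -0.33 and Ccng1 at -0.28 (adjusted p = 0.0004, 0.00403, 0.0452 and 0.0451).

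The genes whose 15 group means followed each member most closely were named by Pearson's r, as a description over groups that share the pool. For Ier2 they were Ier5l (r = 0.946), Plk3 (0.938) and Egr1 (0.937), and for Phlda1 1190007F08Rik (0.967), Ovol1 (0.961) and Relb (0.922). For Ier5 they were Myh11 (0.949), Adamts1 (0.933) and D11Lgp1e (0.924), and for Ier3 1700013B14Rik (0.883), Grca (0.881) and Prrg2 (0.877). Phlda3 was closest to Usp10 (0.934), Jagn1 (0.922) and Rab23 (0.911). The highest r for Phlda2, whose means barely vary, was 0.785, with Lrrtm2, followed by Apoa5 (0.782) and 4931420D14Rik (0.779). These are the highest r among 21674 genes, and a high r is no mark of a rise over the pool. Group means ran from -0.68 to -0.13 for 1190007F08Rik, -0.57 to 0.02 for Relb, -0.31 to 0.22 for Grca and -1.23 to -0.69 for 1700013B14Rik. Those of Egr1 reached 4.71 and those of Adamts1 4.11.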

How the data were processed

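Total RNA of wt and p38α-/- MEFs was hybridised on 30 two-colour Agilent arrays, 2 per group, which the methods attribute to independent experiments. The authors scanned them with Agilent Feature Extraction (version 9.1 per the labels, 8.1.1.1 per the file headers), with spatial detrending, no local background subtraction and a linear and LOWESS correction between dyes, and deposited the intensity and the log10 ratio of processed Cy5 to Cy3 of each spot, where dim signals are surrogates. The series matrix that the authors deposited holds log2 ratios of 1 value per probe and served as an alternative. Log10 ratios were multiplied by 3.3219 to give log2 ratios, and control spots were left out.

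In the averaged fit, spots marked as outliers were left out and probes of a gene were averaged. In the single-probe fit, added after the data were seen, the probe with the highest mean signal stood for its gene with all spots kept. limma 3.58.1 (R 4.3.3) fitted 15 group means to the 30 arrays (15 residual degrees of freedom), and p-values were adjusted by Benjamini-Hochberg over all genes measured on the arrays compared, with a threshold of 0.05. Python 3.11.15 with numpy 2.4.6, pandas 2.3.3 and matplotlib 3.10.9 read the files and drew the figures. The fits were tested on simulated data. The members and gene lists were chosen with earlier results of these data known. Genes named were the 6 members, Mapk14, Ier5l, the 2 highest genes of each list per wt stress, and the 3 genes with the highest r to each member over the group means.

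To see whether the replicate numbers mark pairs, the difference of the 2 arrays of a group was correlated between groups in the averaged fit. It exceeded 0.1 in 55 of 55 pairs of wt groups (0.133 to 0.645) and 6 of 6 pairs of p38α-/- groups (0.151 to 0.447), and in 6 of 44 pairs across genotypes, and in the single-probe fit in 50, 5 and 14 of these. The numbers were thus read as pairs in each genotype. Neither fit uses this pairing: its p-values and SEs leave it out, and it enters only through the replicate block among the alternatives. There are 4 scan batches: they follow the numbers in wt MEFs, whereas in p38α-/- MEFs replicate 2 with TNFα was scanned apart from the other 3. Alternatives were kept outliers, the brightest probe, spots well above background, normexp (offset 50) with loess, median centring, the series matrix, replicate and scan batch blocks, the compared arrays alone, a 2.5-fold rule and each array left out. The number of arrays limits the precision.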

Additional observations from a re-analysis of the deposited data

Results flagged for a closer look

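Responses to a stress that differed between wt MEFs and the inhibitor or p38α-/- MEFs are collected here as signed log2 differences. They passed the test of the difference itself in limma, all from 2 arrays per group. The pool stands for unstressed wt MEFs in all of them, so a probe's offset between the dyes would enter each and was not measured. In the averaged fit 1 passed, that of Ier5 to NaCl at 2 h with SB203580, at -1.32 (adjusted p = 0.0401), a call lost in 10 of 30 omissions of 1 array, and it had the same size in the single-probe fit, at -1.32 (adjusted p = 0.0133; lost in 3). The single-probe fit gave 10 more. Such differences were called in either direction for 13.2%, 12.7%, 14.2% and 6.26% of all genes with SB203580 (anisomycin, TNFα, and NaCl at 2 h and 8 h). In p38α-/- MEFs the shares were 9.77% and 11.3% (anisomycin and TNFα), so that 1 of 6 members is near these undirected shares. Most of those genes were higher: of 21689 genes, 603, 456, 959 and 421 were called lower with SB203580 and 292 and 377 in p38α-/- MEFs. The member calls with SB203580 were Ier2 with anisomycin at -2.19, Ier5 with anisomycin at -1.31, and Phlda1 with anisomycin at -1.29, with TNFα at -0.87, with NaCl at 2 h at -1.03 and at 8 h at -0.97. In p38α-/- MEFs they were Ier2 with anisomycin at -1.59, Ier5 with anisomycin at -1.03, Phlda1 with TNFα at -0.86 and Ier3 with TNFα at 1.21. In p38α-/- MEFs the Phlda1 call was lost in 25 of 30 omissions, that of Ier5 in 10, that of Ier3 in 6 and that of Ier2 in 1, and with SB203580 those of Phlda1 with TNFα and at 8 h were lost in 12 and 9. Ier3 with TNFα is the 1 response among them that was larger without p38α, and its arrays were at -1.76 and -1.91 without stress and 0.72 and 0.90 with TNFα in p38α-/- MEFs, against 1.19 and 1.68 with TNFα in wt MEFs.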

How the results depend on the processing

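The averaged fit called 31 ratios to the pool, 1 difference with SB203580, 0 with p38α-/- MEFs, 6 inductions, 4 differences over time and 0 between stresses. With outlier spots kept these were 52, 5, 3, 13, 7 and 2, and in the single-probe fit 54, 8, 7, 15, 6 and 3. The series matrix gave 54 ratios, 9 and 5 differences in the inhibitor and p38α-/- arms, 11 inductions and 1 difference between stresses. For the SB203580 differences the brightest probe, spots well above background, normexp and the replicate block gave 3 each, the compared arrays alone 0 and the 2.5-fold rule 4. For ratios to the pool the 2.5-fold rule gave 12. In the single-probe fit the 2.5-fold rule gave 24 ratios, 3 and 3 differences in the inhibitor and p38α-/- arms and 3 over time, and the compared arrays alone 0 differences with p38α-/- MEFs. Leaving out 1 array gave, in the averaged fit, 27 to 34 ratios, 0 to 5 differences with SB203580, 0 to 1 with p38α-/- MEFs, 4 to 8 inductions, 1 to 5 differences over time and 0 to 0 between stresses. In the single-probe fit it gave 51 to 57, 2 to 9, 2 to 8, 11 to 16, 4 to 7 and 2 to 3.

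With the replicate number as a block, all calls of both fits stayed. The averaged fit called 34, 3, 0, 6, 6 and 0 of the same 6 kinds under the block, gaining Phlda2 and Phlda3 with anisomycin in p38α-/- MEFs, Ier3 at 8 h of NaCl with SB203580, Ier2 and Phlda2 between 45 min and 8 h, and the smaller responses with SB203580 of Phlda1 at 8 h of NaCl and Ier5 with anisomycin. The block gave 54, 8, 8, 16, 7 and 3 in the single-probe fit, where it changed no calls beyond those named with their values in the report.

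In the series matrix the values of Ier2 with TNFα turned sign against the averaged fit: with SB203580 and TNFα it was -2.01, against SB203580 alone -2.50, against TNFα alone -3.46, and its difference of response -3.95. There the matrix holds values of both Ier2 probes. The cause of these moves was not tested. Under settings with no array left out, 1599 of 1684 single values in the averaged and 1574 of 1620 in the single-probe fit kept their direction and side of the threshold, and 15 and 26 lost a call. With an array of the compared groups left out, 667 of 728 and 880 of 996 kept both, and 52 and 105 lost a call. The dim second probes of Ier2 and Phlda2, the spots marked as outliers, 2 arrays per group and a pool without replicates limit all values here.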
